A study of Mus musculus with 23 samples.

Results

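The 23 hypothalamus arrays of a db/db mouse study were ordered by the mean log2 value of Kcnj13, Ttr, Folr1 and Clic6, 4 genes used as markers of the choroid plexus, and the 6 highest arrays were set against the 6 lowest, with 11 arrays between them. Each gene was read from the probe set that names it alone and has the highest mean over all arrays. The levels of these genes chose the arrays, so every difference between the highest and the lowest arrays, and every correlation with the ranking value, is a description without a test. The 4 genes did not vary together over the arrays, and the order was mostly that of Kcnj13. The arrays at the top are therefore called here the arrays ranked highest by these 4 genes, not arrays rich in choroid plexus.

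The db/db mouse carries a mutation of the leptin receptor, in the celastrol and the vehicle groups alike, and is a model of obesity without working leptin signalling. Male mice, 8 weeks old and fed normal chow for 2 weeks, received celastrol, a plant triterpene, by injection into the peritoneum, or its solvent DMSO as vehicle. The groups were celastrol and vehicle at 6 h (3 and 4 arrays), at 1 day (4 and 4 arrays) and at 4 days (4 and 4 arrays). The labels give a celastrol dose of 250 µg per kg beside the 6 h time, and 25 µl of DMSO per day for both treatments. The labels state no dose beside the later times. They call the arrays biological replicates and do not say whether animals were pooled.

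The choroid plexus is a folded epithelium on a core of vessels and connective tissue that hangs into the brain ventricles and secretes cerebrospinal fluid. Its cells are known for transthyretin (Ttr), a carrier of thyroid hormone and retinol, for the potassium channel Kcnj13, for the folate receptor Folr1 and for the chloride channel protein Clic6. The hypothalamus lines the third ventricle and lies against the meninges, so a dissected block can carry plexus epithelium or the fibroblasts of the meninges with it. In bulk RNA, more cells of a type and more RNA per cell cannot be told apart.

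The standard deviation (SD) over the probe sets of an array lay between 1.97 and 2.05 on the log2 scale. The median of an array lay between 8.57 and 8.64. Ttr, Folr1 and Clic6 were under it in every array. Kcnj13 was above it only in vehicle 4 days replicates 1, 2 and 3. The mean of 16 genes that define the hypothalamus was 10.52 to 10.63 in the highest arrays and 10.51 to 10.59 in the lowest. Prolactin (Prl), a pituitary hormone, spread over 6.37 to 10.37 in the highest arrays and 5.95 to 11.28 in the lowest, a wide range on both sides of the ranking.

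Most of the arrays at the top came from the latest time. Vehicle at 4 days gave 3 of the 6 highest arrays, celastrol at 4 days gave 2 and vehicle at 1 day gave 1. The 6 lowest arrays were 2 of celastrol at 6 h, 2 of vehicle at 6 h, 1 of celastrol at 1 day and 1 of vehicle at 1 day. By treatment, the highest arrays were 2 of celastrol and 4 of vehicle, and the lowest were 3 of each. By time, 5 of the 6 highest arrays and 0 of the 6 lowest came from 4 days. The ranking and the time of treatment thus overlap, and their parts in a difference between the highest and the lowest arrays cannot be told apart.

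The ranking value was highest in vehicle 4 days replicate 2, at 8.32, followed by vehicle 4 days replicate 3 at 8.19. The other 4 of the highest arrays lay close together, from 8.03 to 8.05. The lowest arrays ran from 7.54 in vehicle 1 day replicate 3 to 7.64 in vehicle 6 h replicate 2. The means of the highest and the lowest arrays differed by 0.507. The last array inside the highest set was celastrol 4 days replicate 4, at 8.03, and the first outside it was vehicle 6 h replicate 4, at 8.00. On the low side, vehicle 6 h replicate 2 at 7.64 was inside and celastrol 1 day replicate 1 at 7.67 was outside.

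**Figure D1:**
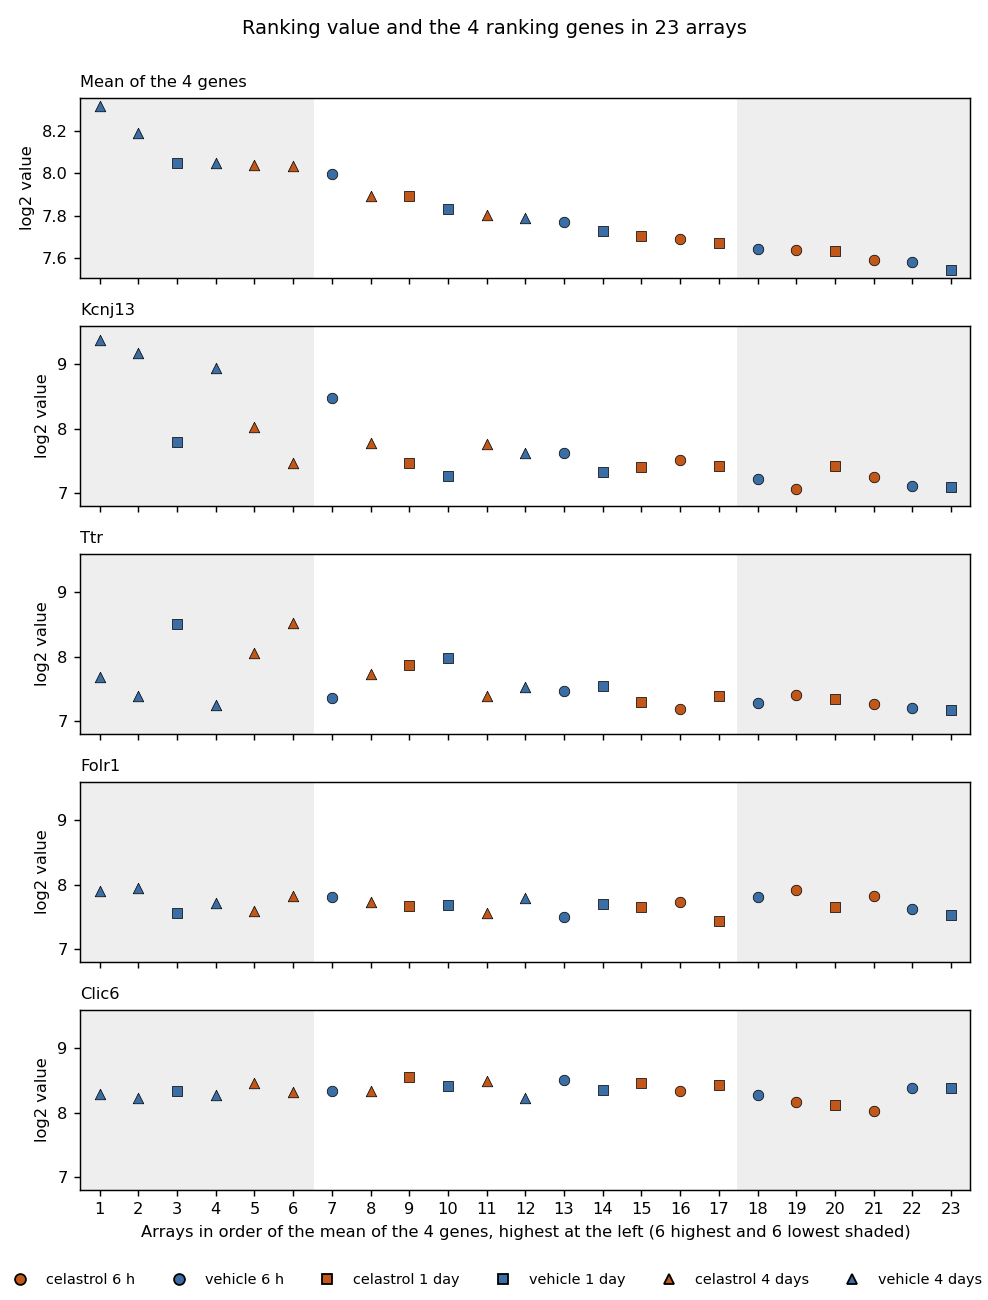
Ranking value and the log2 level of each of the 4 ranking genes (y axes) in the 23 arrays in rank order (x axis, highest at the left); orange marks celastrol, blue marks vehicle, and circles, squares and triangles mark 6 h, 1 day and 4 days. Kcnj13 is above 8.9 in 3 of the highest arrays, Ttr is highest in other arrays, and Folr1 and Clic6 vary over narrower ranges.

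Kcnj13, an inwardly rectifying potassium channel of the apical membrane of plexus cells, had the widest spread. Its levels in the highest arrays, in rank order, were 9.38, 9.18, 7.79, 8.94, 8.03 and 7.47, against 7.22, 7.06, 7.42, 7.25, 7.11 and 7.10 in the lowest. The 3 vehicle arrays at 4 days stood more than 0.9 above the other 3 of the highest, and the 2 sets did not overlap. Over all arrays Kcnj13 spanned a 5.01-fold range with an SD of 0.66 on the log2 scale, and it supplied 67.6% of the variance of the ranking value.

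Ttr put other arrays at the top. Its levels in the highest arrays were 7.69, 7.40, 8.50, 7.25, 8.06 and 8.53, against 7.28, 7.41, 7.34, 7.27, 7.20 and 7.17 in the lowest. The high values were those of vehicle 1 day replicate 1, celastrol 4 days replicate 1 and celastrol 4 days replicate 4, while the 3 vehicle arrays at 4 days lay at 7.25 to 7.69, and the sets overlapped. Ttr spanned a 2.58-fold range and supplied 24.8% of the variance of the ranking value.

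Folr1 and Clic6 supplied little of the variance of the ranking value, 5.94% and 1.61%. Folr1, which carries folate toward the cerebrospinal fluid, was 7.56 to 7.95 (median 7.77) in the highest arrays and 7.53 to 7.92 (median 7.73) in the lowest. Clic6 was 8.23 to 8.47 (median 8.31) in the highest arrays and 8.02 to 8.38 (median 8.22) in the lowest. The ranges of Folr1 overlapped almost fully and those of Clic6 in part.

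Pearson's r over the 23 arrays was 0.05 between Kcnj13 and Ttr, 0.38 between Kcnj13 and Folr1, -0.05 between Kcnj13 and Clic6, -0.02 between Ttr and Folr1 and 0.21 between Ttr and Clic6. Folr1 and Clic6 ran opposite ways, with r = -0.62 (Spearman's rho -0.71). These 2 genes also followed the spread of the array, a property of all probe sets: r with the SD over probe sets was -0.62 for Folr1 and 0.61 for Clic6, but -0.34 for Kcnj13 and -0.07 for Ttr. The part of array spread in the opposite course of Folr1 and Clic6 was not tested. All these correlations share the same 23 libraries and their normalisation. The part of low signal in the weak correlations was not tested.

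The first question was which other genes follow the ranking. A gene was counted as following where its r with the ranking value was at least 0.8 over the 23 arrays, and 14 of 18698 genes did so, which is 0.0749%. They were Igf2, Bmp6, Ptgds, Slc13a4, Nbl1, Aldh1a2, Mpzl2, Itih2, Dapl1, Slc6a13, Prg4, Slc6a12, Fmod and Cped1, with r between 0.80 and 0.83 and rho between 0.65 and 0.82. Without the 2 arrays farthest from the median ranking value, their r fell to 0.63 to 0.72. As deviations from the group means it was 0.67 to 0.83. All 14 lay just above the limit, and their number turned on the processing and on single arrays: it was 0 when values were quantile normalised once more, 0 without vehicle 4 days replicate 2 and 40 without celastrol 4 days replicate 4. Their median r was 0.56 among the 11 celastrol arrays and 0.89 among the 12 vehicle arrays, and 0.72 among the 11 arrays between the extremes. No gene had r of -0.8 or below, and the lowest was Tmem30a, a flippase subunit, at -0.76.

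The followers were closer to Kcnj13 than to Ttr. This was largely set in advance, since Kcnj13 supplied 67.6% of the variance of the ranking value and Ttr 24.8%. Of the 14, 13 had r of at least 0.9 with Kcnj13, and the lowest, Nbl1, had 0.88. Their r with Ttr lay between -0.02 and 0.15. When the ranking value was formed without Kcnj13, 0 genes reached r of 0.8, and when it was formed without Ttr, 59 did, the 14 among them. Without Folr1, 2 genes did, both among the 14, and without Clic6, 29 did, the 14 among them, so the count also turned on the 2 genes of small variance. With the ranking genes scaled to SD 1, 1 gene followed, and it was not among the 14. Ranked by Kcnj13 alone, 59 genes followed. Ranked by Ttr alone 0 followed, by Folr1 alone 6 and by Clic6 alone 2. The gene most like Kcnj13 was Slc6a13, at r = 0.98. The genes most like the other 3 were Gal3st1 for Ttr at 0.69, Hspg2 for Folr1 at 0.84 and Pwp1 for Clic6 at 0.82.

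Transporters made up 3 of the 14 followers. Slc13a4, a sulfate transporter found in plexus and meninges, was 9.79, 10.15, 8.63, 9.72, 8.72 and 8.48 in the highest arrays, in rank order, against 8.28, 8.18, 8.10, 8.33, 8.24 and 8.16 in the lowest, a difference of 1.03. The 3 vehicle arrays at 4 days were again the highest, and the sets did not overlap. Slc6a13, a GABA and taurine transporter, was 9.99, 9.91, 8.87, 9.74, 8.90 and 8.45 in the highest arrays, against 8.55, 8.43, 8.50, 8.57, 8.29 and 8.37 in the lowest. Celastrol 4 days replicate 4, one of the highest, lay within the range of the lowest. Slc6a12, a betaine and GABA transporter, ran from 8.23 to 9.50 in the highest arrays and 7.91 to 8.17 in the lowest, without overlap.

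Of the secreted factors, Igf2, an insulin-like growth factor, was 9.64 to 10.77 (median 10.19) in the highest arrays and 9.26 to 9.65 (median 9.48) in the lowest. The sets touched only through celastrol 4 days replicate 4, at 9.64, and celastrol 6 h replicate 1, at 9.65. Bmp6, a bone morphogenetic protein, differed by 0.53, and Nbl1, an antagonist of such proteins, by 0.28. Aldh1a2, which makes retinoic acid, was 7.94 to 9.17 in the highest arrays and 7.41 to 7.86 in the lowest, without overlap. Ptgds, the prostaglandin D2 synthase of meninges and plexus, differed by 0.49 with overlap.

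Matrix genes followed as well. Prg4, a lubricating proteoglycan, had the largest difference of the 14, 1.22, at 7.28 to 9.40 (median 8.73) in the highest arrays and 6.88 to 7.68 (median 7.35) in the lowest. Fmod, a collagen-binding proteoglycan, was 8.65 to 10.53 in the highest arrays and 8.48 to 8.88 in the lowest. Itih2, a hyaluronan-binding protein, and the adhesion protein Mpzl2 differed by 0.79 and 0.75. The sets overlapped in each of these genes through celastrol 4 days replicate 4. Slc13a4, Aldh1a2 and Slc6a12 alone among the 14 had no overlap. Over all genes, 70 of 18698 (0.374%) were higher in every highest than in every lowest array and 15 (0.0802%) were lower in all, and Slc13a4, Aldh1a2 and Slc6a12 were the only ones of the 70 higher by 0.5 or more.

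Around Kcnj13, 28 of 18701 genes (0.15%) had r of at least 0.9, and their median r with Kcnj13 within groups was 0.90. Besides 13 of the followers they included Serpind1, a heparin-dependent protease inhibitor (0.97), Slc6a20a, a proline transporter (0.96), Osr1, a transcription factor (0.96), Ogn, a matrix proteoglycan (0.94), and the organic anion transporters Slc22a8 (0.93) and Slc22a6 (0.91). The highest r of any of them with Ttr was 0.08. Of the 28, 9 belong to a list of 19 markers of meningeal and perivascular fibroblasts, namely Igf2, Slc6a13, Slc13a3, Slc22a6, Aldh1a2, Ogn, Fmod, Serpind1 and Bmp6, and 1, Slc13a4, to a list of 35 other choroid plexus genes. The list of 19 was made with differences of Slc13a3 and Serpind1 in these arrays known, so the count is a description only. Slc13a3, Slc22a6 and Slc22a8 are known from plexus and from meninges.

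Promoters of Kcnj13 and of 3 genes that move with it are shown as examples that hold a motif searched for in the set. They were picked from the promoters with that motif, and 14 of the 21 promoters examined lack it. The table of RefSeq promoters (GRCm38.p6, 250 bases before to 50 after the start) had an entry for 21 of the 29 genes. The letters CATTCC, the core of the TEAD motif, or their reverse complement GGAATG, were found in 7 of the 21 (33.3%), against 14.6% of the first-listed promoters of all genes. The OTX core TAATCC (reverse GGATTA) was found in 3 (14.3%), against 7.16%. The forkhead core GTAAACA (reverse TGTTTAC) was found in 1 (4.76%), against 3.55%. A match is a run of letters and not a shown binding site. The capitals mark the TEAD letters in the promoters of Kcnj13 (chr1:87394680-87394979, minus strand), Slc6a13 (chr6:121300038-121300337, plus strand), Slc13a4 (chr6:35308077-35308376, minus strand) and Itih2 (chr2:10130634-10130933, minus strand), each printed 5′ to 3′ on the strand of the gene.
Kcnj13: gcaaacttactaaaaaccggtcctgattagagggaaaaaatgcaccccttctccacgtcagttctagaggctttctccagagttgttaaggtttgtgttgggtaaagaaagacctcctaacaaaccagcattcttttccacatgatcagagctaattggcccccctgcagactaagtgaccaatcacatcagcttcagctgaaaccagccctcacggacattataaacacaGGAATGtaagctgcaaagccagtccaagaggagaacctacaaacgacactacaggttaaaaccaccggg
Slc6a13: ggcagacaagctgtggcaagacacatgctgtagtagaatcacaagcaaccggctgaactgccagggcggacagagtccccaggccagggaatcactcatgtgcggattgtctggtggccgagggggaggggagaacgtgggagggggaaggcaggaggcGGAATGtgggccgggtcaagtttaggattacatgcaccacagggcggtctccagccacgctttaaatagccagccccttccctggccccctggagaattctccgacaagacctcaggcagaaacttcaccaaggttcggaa
Slc13a4: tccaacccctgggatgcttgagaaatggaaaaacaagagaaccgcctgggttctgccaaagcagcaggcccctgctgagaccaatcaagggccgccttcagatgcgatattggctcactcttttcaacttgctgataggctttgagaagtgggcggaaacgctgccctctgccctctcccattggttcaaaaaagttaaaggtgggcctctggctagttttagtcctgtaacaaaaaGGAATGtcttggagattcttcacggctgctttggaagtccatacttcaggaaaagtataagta
Itih2: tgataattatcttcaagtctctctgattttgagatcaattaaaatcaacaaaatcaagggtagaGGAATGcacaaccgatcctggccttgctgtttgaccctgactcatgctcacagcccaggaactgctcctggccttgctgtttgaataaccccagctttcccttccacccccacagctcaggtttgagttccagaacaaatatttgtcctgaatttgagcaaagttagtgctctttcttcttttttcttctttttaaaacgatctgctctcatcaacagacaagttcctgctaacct

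The second question was whether the other genes of the choroid plexus follow. Of 40 listed genes, 35 were measured, and 1 of the 35, Slc13a4, had r of at least 0.8 with the ranking value. Their median r was 0.33, with 28 of 35 above 0, beside a median of 0.08 over all genes. The mean of the 35 was 8.14 to 8.30 (median 8.26) in the highest arrays and 8.08 to 8.21 (median 8.17) in the lowest, which overlapped. This mean had r = 0.70 with the ranking value, beside 0.50 for the mean of all genes but the 4 ranking genes. Of the 35, 25 had a higher mean in the highest arrays, by a median of 0.09 over the list, beside 59.6% of all genes with a higher mean there. The list mean had r = -0.74 with the SD over probe sets, against -0.30 for the ranking value. The part of array spread in the course of the list was not tested.

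By role, the transport genes apart from Slc13a4 had r from -0.18 (Slc31a1, a copper transporter) to 0.50 (Abca4, a lipid transporter). The water channel Aqp1 had 0.01 and the potassium channel subunit Kcne2 had 0.39. Among enzymes, the angiotensin-converting enzyme Ace had 0.66 and the carbonic anhydrase Car14 had 0.51. Among secreted proteins, the lipopolysaccharide-binding protein Lbp had 0.71, the BMP and Wnt antagonist Sostdc1 had 0.34 and the coagulation factor F5 had -0.11. The receptor Kl, the co-receptor of fibroblast growth factor 23, had 0.59. The tight junction protein Cldn2 had -0.05, and Otx2, the transcription factor on which plexus identity depends, had -0.10. Cab39l, a kinase scaffold, was lowest at -0.51.

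Of the 35 other plexus genes, 1, Slc13a4, had no overlap between the extremes. Aqp1 was 7.19 to 7.64 (median 7.45) in the highest arrays and 7.28 to 7.69 (median 7.55) in the lowest. Otx2 was 7.47 to 7.86 (median 7.64) in the highest arrays and 7.55 to 7.74 (median 7.67) in the lowest. Sostdc1 was 7.73 to 8.09 (median 7.89) in the highest arrays and 7.74 to 7.96 (median 7.76) in the lowest, a difference of 0.10, close to the median of the list. These 3 genes lay under the array median in every array. Of the members with higher r, Ace was 10.17 to 10.38 in the highest arrays and 10.03 to 10.23 in the lowest. Lbp was 8.80 to 9.33 in the highest arrays and 8.74 to 9.05 in the lowest. In each of these genes the ranges overlapped. With Kcnj13, 6 of the 35 had r of at least 0.5, led by Slc13a4 (0.96) and Lbp (0.85). With Ttr, 1 of the 35 did, Slc29a4 at 0.51.

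The list that followed best was that of meningeal and perivascular fibroblasts. It was made with the celastrol differences of its members Igfbp2, Slc13a3 and Serpind1 at 4 days known. Its likeness to the ranking is therefore a description and not independent support. Its 19 genes had a median r of 0.76 with the ranking value and 0.85 with Kcnj13, against -0.02 with Ttr, and 5 of the 19 were followers. Its mean was 8.24 to 9.12 (median 8.76) in the highest arrays and 8.07 to 8.34 (median 8.31) in the lowest, and 18 of the 19 had a higher mean in the highest arrays, beside the 59.6% of all genes. The smallest differences between the highest and the lowest arrays in the list were those of the collagens Col1a1, at 0.01 with r = 0.25, and Col3a1, at -0.0024 with r = 0.23. The list means lay closer together than the medians. Their r with the ranking value was 0.80 for fibroblast, 0.75 for pericyte and smooth muscle and 0.70 for other choroid plexus genes. With Prl, the fibroblast mean had r = 0.43 (rho 0.56) and the other choroid plexus mean r = 0.35 (rho 0.52). Gene by gene, pericyte and smooth muscle genes had a median r of 0.47 with the ranking value and pituitary genes 0.32. Ependyma and cilia genes had 0.10, tanycyte genes 0.08, astrocyte genes 0.04, hypothalamus genes -0.02 and thalamus genes -0.11.

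**Figure D2:**
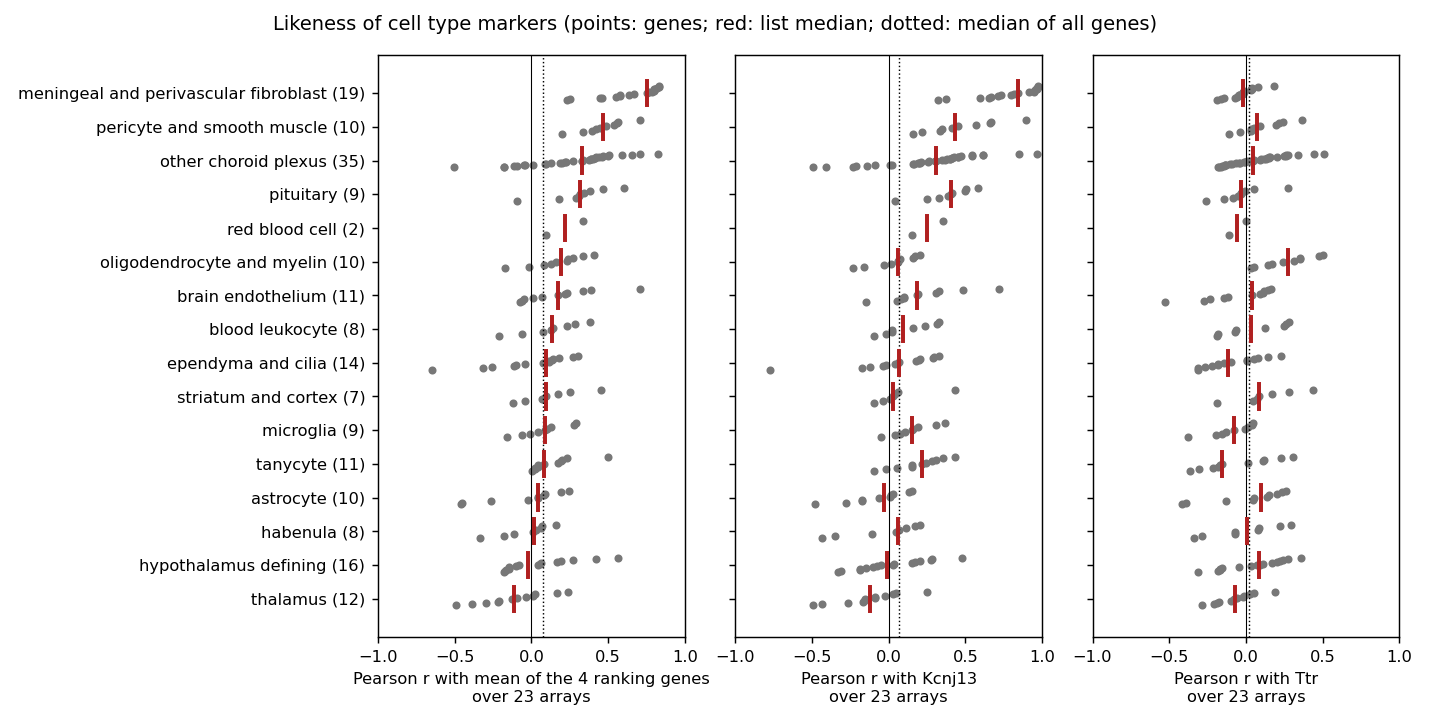
Pearson r over 23 arrays of each list gene (grey points) with the ranking value, with Kcnj13 and with Ttr (3 panels); red bars are list medians, dotted lines the median of all genes, and numbers of genes stand in brackets. The fibroblast list has the highest median with the ranking value (0.76) and with Kcnj13 (0.85) but not with Ttr (-0.02), and the other choroid plexus genes spread from -0.51 to 0.83.

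**Figure D3:**
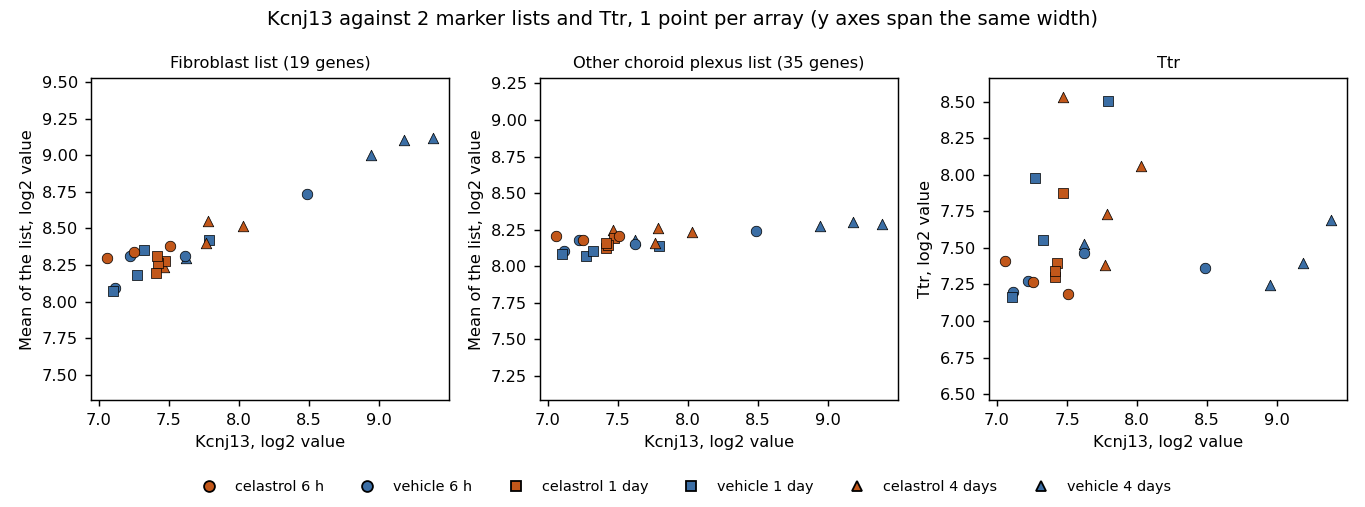
Kcnj13 (x axis, log2) against the mean of the fibroblast list, the mean of the other choroid plexus list and Ttr (y axes, log2, of equal width), 1 point per array, with colours for treatment and shapes for time. The fibroblast mean goes up with Kcnj13 (r = 0.97), the plexus mean much less (r = 0.74, over a narrow range), and Ttr is high in other arrays (r = 0.05).

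The plot of Kcnj13 against the lists shows 4 arrays with Kcnj13 above 8.4. These were vehicle 4 days replicates 1, 2 and 3 and vehicle 6 h replicate 4, and they also held the 4 highest fibroblast means. The arrays with Ttr above 8, vehicle 1 day replicate 1 and celastrol 4 days replicates 1 and 4, were not among them.

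The last question was whether treatment or time set these genes apart, which was tested because the labels took no part in the ranking. The test was limma's moderated test on all 18702 genes, with Benjamini-Hochberg adjustment over all of them at 0.05. Kcnj13 averaged 7.27 ± 0.23 in celastrol at 6 h (SD, n = 3) and 7.61 ± 0.62 in vehicle at 6 h (n = 4). At 1 day it averaged 7.43 ± 0.03 in celastrol and 7.37 ± 0.29 in vehicle (n = 4 each). At 4 days it averaged 7.76 ± 0.23 in celastrol and 8.78 ± 0.79 in vehicle (n = 4 each). The 4 celastrol arrays at 4 days were at 8.03, 7.77, 7.78 and 7.47, and the 4 vehicle arrays at 8.94, 9.38, 9.18 and 7.62. Vehicle replicate 4 lay among the celastrol arrays.

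Groups held 62.6% of the variance of Kcnj13, beside a median of 35% over all genes. Kcnj13 differed between the 6 groups, with an adjusted p of 0.0159 in limma's F test. That call was lost without vehicle 4 days replicate 2 (adjusted p 0.0530) and without replicate 3 (adjusted p 0.0542). In the same F test 1751 genes (9.36%) passed, a count that was 810 when values were quantile normalised once more, 652 with the ranking value as a covariate and 730 to 1994 without 1 array, lowest without vehicle 1 day replicate 4. The other ranking genes did not pass, with adjusted p of 0.161 for Ttr, 0.103 for Folr1 and 0.190 for Clic6. Of the 14 followers, 11 passed, but they were chosen on the same arrays, and Nbl1 (0.0861), Slc6a12 (0.0706) and Prg4 (0.0550) did not. Leaving out 1 array lost the call of 9 of these 11 at least once, with all 9 lost without vehicle 4 days replicate 1, 2 or 3, while Slc13a4 (adjusted p up to 0.0295) and Itih2 (up to 0.0437) passed without each array. Of the 35 other plexus genes, 9 passed, namely Slc13a4, Ace, Kcne2, Krt8, Col9a3, Msx1, Tmem72, Cab39l and Wdr86, and of the 19 fibroblast genes, 9 did.

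**Figure D4:**
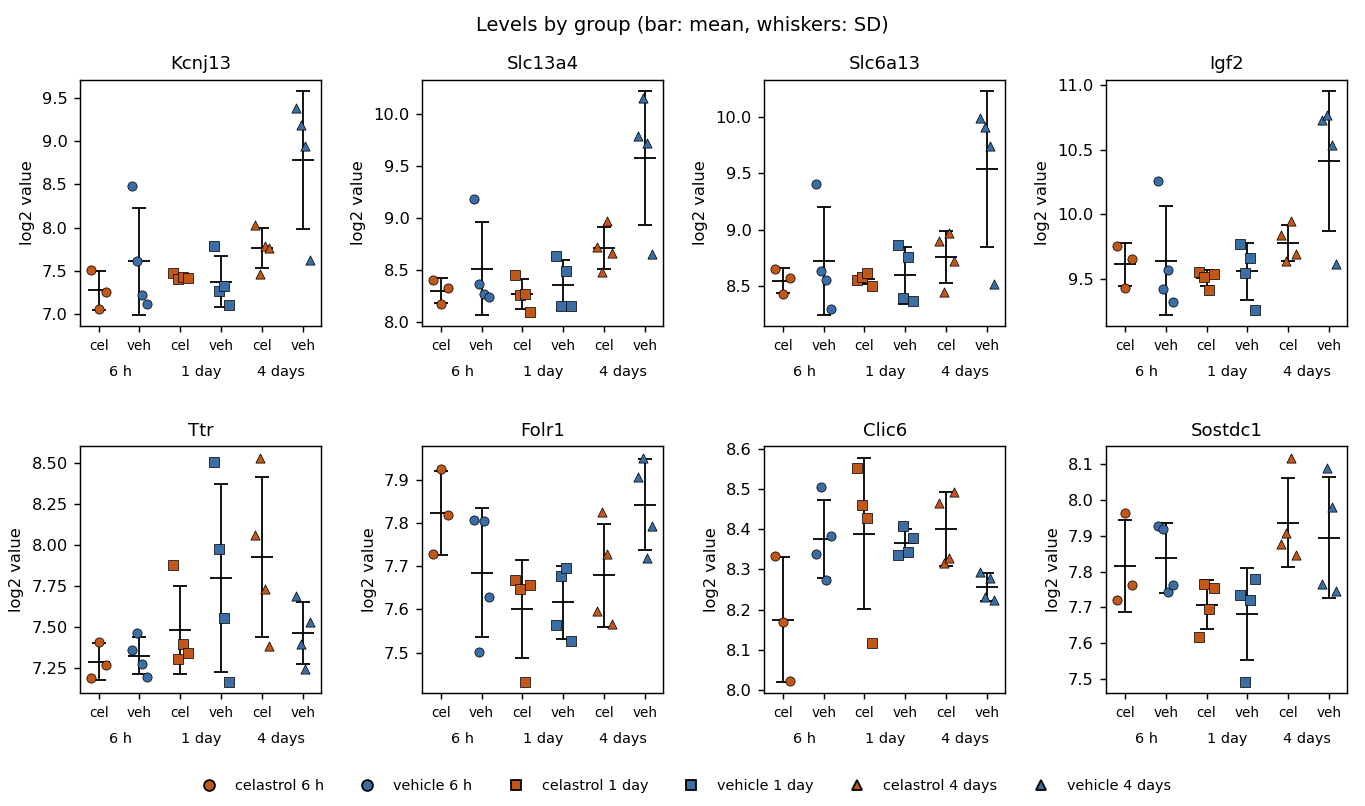
Log2 levels (y axes) of 8 genes by treatment and time (x axes, celastrol left of vehicle at each time); points are arrays, bars the group mean and whiskers the SD (n = 3 in celastrol at 6 h, otherwise 4). Kcnj13, Slc13a4, Slc6a13 and Igf2 share the 3 high and 1 low vehicle arrays at 4 days, a course that Ttr, Folr1, Clic6 and Sostdc1 lack.

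Celastrol minus vehicle at 4 days was -1.02 ± 0.28 (SE) for Kcnj13, with an adjusted p of 0.326 by limma. It was 0.46 ± 0.22 for Ttr (adjusted p 0.671), -0.16 ± 0.08 for Folr1 (0.667) and 0.14 ± 0.08 for Clic6 (0.723), so the signs of the 4 genes differed. None of the 18702 genes (0%) passed at 4 days by limma, and 1364 had an unadjusted p under 0.05, of which 854 (4.57% of all) were lower in celastrol. At 6 h 0 genes passed (0%) and 2763 had an unadjusted p under 0.05. At 1 day 3 genes passed (0.016%), none of them a ranking gene, a follower or a gene of the plexus and fibroblast lists. The celastrol effect on Kcnj13 was not shown to differ between times (adjusted p 0.364).

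At 4 days all 19 fibroblast genes had a lower mean in celastrol than in vehicle, by a median of 0.43. Over all genes, 9414 of 18702 were lower. Of the 19, 14 had an unadjusted p under 0.05 by limma, beside the 4.57% above. The celastrol differences of Igfbp2, Slc13a3 and Serpind1 at 4 days were known when this list was made. The genes of the list also move together, so the count is a description and not independent support. At 6 h 12 of the 19 were lower, beside 8832 of all 18702 genes. At 1 day 9 of the 19 were lower, beside 8584 of all 18702 genes. Other lists were also lower in celastrol at 4 days: all 12 thalamus genes, by a median of 0.18 (1 with an unadjusted p under 0.05), all 9 pituitary genes, by 0.15 (0), and 8 of 10 pericyte and smooth muscle genes, by 0.09 over the list (2). The largest differences in the fibroblast list were -0.86 for Fmod (adjusted p 0.379), -0.79 for Ogn (adjusted p 0.503) and -0.78 for Slc6a13 (adjusted p 0.379). Of the 35 other plexus genes, 21 had a lower mean in celastrol, by a median of 0.02 over the list. An unadjusted p under 0.05 by limma was found in 3 of the 35, beside 1364 of all 18702 genes. Slc13a4 at 4 days was 8.72, 8.67, 8.97 and 8.48 in celastrol and 9.72, 9.79, 10.15 and 8.66 in vehicle, a difference of -0.87 ± 0.22 (SE, adjusted p 0.311 by limma). As with Kcnj13, vehicle replicate 4 lay within the celastrol range.

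The count at 4 days turned on this 1 vehicle array. Without vehicle 4 days replicate 4, 39 of 18702 genes passed by limma, 38 of them lower in celastrol. Kcnj13 was among the 39 at -1.41 (adjusted p 0.00287). Of the 39, 23 were among the 28 genes most like Kcnj13, 11 were in the fibroblast list and 1, Slc13a4, was in the other plexus list. The 28 were chosen on these same arrays by their likeness to Kcnj13, so their share of the 39 is no separate finding. Leaving out any other array gave 0 to 2 genes. Nothing in the labels sets replicate 4 apart. It was kept among the 23 arrays in every result not said to leave arrays out. The mean of the pituitary list was 8.13 in replicate 4 and 8.47, 9.45 and 8.65 in vehicle 4 days replicates 1, 2 and 3. Cga, a member of that list, was 7.97 against 10.26, 10.56 and 10.27. In celastrol at 6 h, where Kcnj13 was 7.06 to 7.51, Cga was 9.69 to 10.39. The part of pituitary tissue in these differences was not tested.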

How the data were processed

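Hypothalamic RNA from db/db males was labelled with biotin for 1-colour Affymetrix arrays, 23 in 6 groups. The values deposited by the authors are on the log2 scale and were made with RMA, per the submitters' processing notes, and no further normalisation was applied here. Of 23492 probe sets, 20228 name 1 gene, 1399 several and 1865 none. The table held 18702 genes after symbols were updated (44 probe sets carried an older one), and for the 811 genes with more than 1 probe set the one with the highest mean was kept. RMA values have no read depth, so the number of arrays limits precision.

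The ranking, the correlations and the 6 against 6 comparison have no test. Celastrol minus vehicle at each time, and any difference between the 6 groups, were fitted by limma (version 3.58.1, under R 4.3.3, 17 residual and 5.42 prior degrees of freedom), adjusted over all genes by Benjamini-Hochberg. Python 3.11.15, pandas 2.3.3 and numpy 2.4.6 did the rest. The test was checked on simulated data with independent noise for each gene. That setting holds no genes that move together and no single array that stands apart, so it does not speak to either. The members and lists were chosen with earlier results of these data known. The genes named are the 4 ranking genes, the listed choroid plexus genes, the followers, genes with the lowest r, up to 4 members of each other list and those most like Kcnj13, which were added after their values were seen, as were Col1a1 and Col3a1. Alternatives were further normalisation, other filters, other ranking genes, a replicate block and leaving out each array. Same-numbered arrays had r between -0.08 and 0.19 in their deviations, so the numbers were not taken as pairs. No scan date or batch was available to set as a block.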

Additional observations from a re-analysis of the deposited data

Results flagged for a closer look

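In 95 groups of 4 arrays (19 measures), 14 held 1 array that stood apart from the other 3 by Dixon's criterion, which chance gives in about 1 in 20 groups. The genes move together, so these are not independent. Vehicle 6 h replicate 4 was high in Slc13a4 (9.18, others 8.24 to 8.36), Itih2 (8.35, others 7.58 to 7.66), Nbl1 (9.43, others 9.14 to 9.17) and Ptgds (13.25, others 12.74 to 12.79). Vehicle 4 days replicate 4 was low in Slc6a13 (8.52, others 9.74 to 9.99), Slc6a12 (7.91, others 9.26 to 9.50), Aldh1a2 (8.04, others 8.98 to 9.17) and Cped1 (8.45, others 8.93 or above). Celastrol 1 day replicate 4 was high in Ttr (7.88, others 7.30 to 7.39), Prg4 (8.26, others 7.56 to 7.61) and Ptgds (13.07, others 12.86 to 12.89). Folr1 was low in celastrol 1 day replicate 1 (7.43, others 7.65 to 7.67). Bmp6 was high in vehicle 1 day replicate 1 (8.90, others 8.69 to 8.73), and Nbl1 in celastrol 4 days replicate 1 (9.36, others 9.21 to 9.23).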

How the results depend on the processing

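The difference of 0.507 in ranking value between the 6 highest and 6 lowest arrays was 0.346 when ranked without Kcnj13, 0.340 by the other choroid plexus list, 0.274 by Ttr alone, 0.150 by Folr1 alone, 0.0649 by Clic6 alone and 0.352 by the fibroblast list, and 0.454 to 0.507 without any 1 array. The 14 followers became 0 when values were quantile normalised once more, 9 when each array was centred on its median, 1 with ranking genes scaled to SD 1, 0 without Kcnj13, 59 without Ttr, 2 without Folr1, 29 without Clic6, 64 by the other choroid plexus list (none of the 14 among them), 2 as deviations from group means, 1 by Spearman's rho, 59 by Kcnj13 alone, 0 by Ttr alone, 6 by Folr1 alone, 2 by Clic6 alone and 60 by the fibroblast list. None of the 14 was among those found with ranking genes scaled to SD 1, by Folr1 alone or by Clic6 alone. Without 1 array the followers ran from 0 (vehicle 4 days replicate 2) to 40 (celastrol 4 days replicate 4). The 3 genes higher by 0.5 or more without overlap became 1 without Kcnj13, 41 without Ttr, 14 by the other choroid plexus list, 29 with 4 against 4 arrays, 24 by Kcnj13 alone, 0 by Ttr, Folr1 or Clic6 alone and 36 by the fibroblast list, and ran from 3 to 21 without 1 array, with 21 without celastrol 4 days replicate 4. The rankings by single genes and by the fibroblast list were chosen after seeing the data. The cause of these changes was not tested.

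Genes passing limma's test at 1 day were 1 after quantile normalisation, 0 with a robust trend and 0 to 7 without 1 array, against 3. At 4 days they were 1 with Kcnj13 as a covariate, added after seeing the data, and 0 to 39 without 1 array, against 0, and at 6 h 0 to 2 without 1 array. Genes differing between the 6 groups were 810 after quantile normalisation, 652 with the ranking value as a covariate and 730 to 1994 without 1 array, against 1751. With the replicate number as a block, 1 gene passed at 1 day and 1 at 4 days, and the adjusted p of Kcnj13 was 0.407 at 4 days and 0.0285 between groups. The same-numbered arrays share only a number. For the 4 ranking genes and the followers, none of the differences at 4 days changed sign. Without 1 array 11 passed, all of them with vehicle 4 days replicate 4 left out. Of the F test results, 27 calls were lost and 1 gained over the alternatives that keep all arrays, and 70 were lost and 7 gained over those that leave out 1 array. In the F test, the adjusted p of Kcnj13 was 0.0118 to 0.0352 over the alternatives that keep all arrays. It was 0.00044 to 0.0542 over those that leave out 1 array.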
